A study of Mus musculus with 8 samples.

Results

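The 10 genes described here were listed together as genes of the membrane skeleton, and not all of their proteins are confined to it. They are Ahnak, Tagln2, the annexins Anxa2 and Anxa6, the S100 genes S100a4, S100a6 and S100a10, the galectin gene Lgals1, the intermediate filament gene Vim and the LIM domain gene Crip1. They were taken by symbol from the 47937 genes of a count table of CD8 thymocytes, as membrane skeleton genes held to rise while T cells mature. The list was drawn up with results of the same comparison known, so the differences between groups are given for these 10 genes as a description. Where a gene is said to be past the threshold of the fit over all genes, that describes the values it was chosen on and is no independent test.

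RNA was sequenced from thymocytes of 4 Ndrg3ctrl and 4 Ndrg3TKO mice, 6 to 7 weeks old, with 1 library per biological replicate. The cells were sorted as CD8 single-positive (CD8SP), TCRb+ and MHC-I high, a gate that holds mature CD8 thymocytes. Ndrg3ctrl mice carried 1 floxed and 1 wild-type allele (Ndrg3 +/fl;Lck-cre+) and Ndrg3TKO mice carried 2 floxed alleles (Ndrg3 fl/fl;Lck-cre+). Both groups thus expressed Cre from the proximal Lck promoter, which is active from early thymocyte stages, and the controls could themselves lose 1 allele. Only this gate was sequenced, so a rise with maturation cannot be seen in these libraries.

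AHNAK is a giant scaffold protein under the plasma membrane that binds calcium channel beta subunits and the complex of annexin A2 with S100A10. Annexins bind acidic phospholipids when calcium rises. S100 proteins are small EF-hand proteins, most of them calcium sensors, that dock onto annexins and other partners. Transgelin-2 binds actin filaments and steadies the immunological synapse of T cells. Galectin-1 binds cell surface glycans, vimentin forms the intermediate filaments that give lymphocytes their stiffness, and CRIP1 is a small LIM protein linked to actin bundles.

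The libraries held 21126698 to 32668081 counts on genes. Ndrg3, the targeted gene, was at 79.2 to 81.4 CPM in Ndrg3ctrl and at 48.4 to 55.3 CPM in Ndrg3TKO, which was past the threshold (log2 fold change -0.64, SE 0.0526, adjusted p = 1.04e-05, edgeR quasi-likelihood test). Only an exon of Ndrg3 is floxed, and reads from the rest of the gene are still counted. CPM are counts relative to the TMM-scaled library size. The CD8 T cell markers (Cd3d, Cd3e, Cd3g, Cd8a, Cd8b1 and Trac) summed to 4194 to 4814 CPM in Ndrg3ctrl and 4460 to 4723 CPM in Ndrg3TKO, with 0 of 6 past the threshold. Y-linked genes gave 353.1 CPM in Ndrg3ctrl 2, 388.7 CPM in Ndrg3TKO 2 and 412.5 CPM in Ndrg3TKO 3, and at most 0.0731 CPM in the other libraries. The study used mice of both sexes, so the libraries with Y-linked counts are read as those of male mice. Mitochondrial genes took 0.636% to 0.820% of the counts in Ndrg3ctrl and 0.571% to 0.713% in Ndrg3TKO, and the part of this difference in the results was not tested.

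Of the 10 genes, 9 passed the filter on low counts. Ahnak and Tagln2 were higher in Ndrg3TKO and 2 of the 9 were thus past an adjusted p of 0.05 (edgeR quasi-likelihood test, Benjamini-Hochberg over 14633 genes). That threshold was passed by 1.15% of all tested genes, by 0.793% as higher in Ndrg3TKO and by 0.355% as lower. The groups did not overlap for the same 2 of 9 genes, against 7.04% of all tested genes. As the genes were picked on this comparison, nothing is read from these shares. The other 7 tested genes had overlapping groups and log2 fold changes between -0.23 and 0.0094. Over the 9 genes, 4 fold changes were positive and 5 negative, with a median of -0.034 on the log2 scale, beside -0.0033 over all tested genes. In sorted bulk RNA, fewer cells of a type and less RNA per cell cannot be told apart.

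**Figure D1:**
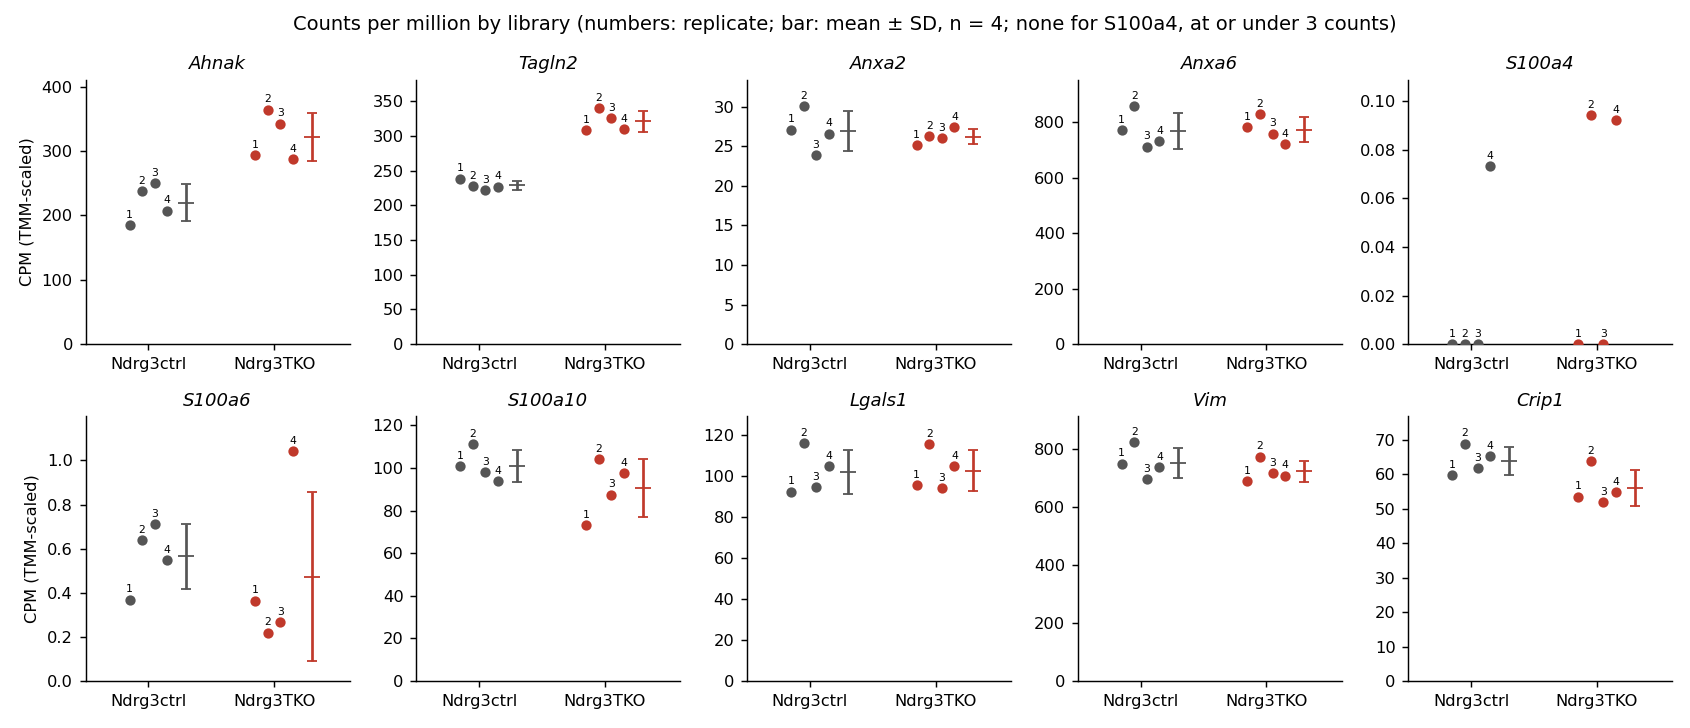
TMM-scaled CPM of the 10 genes (vertical axes from 0) in each of 4 Ndrg3ctrl and 4 Ndrg3TKO libraries, numbered by replicate, with bars for the mean ± SD (no bar for S100a4, which had at most 3 counts in a library). Ahnak (184.9 to 249.8 against 288.1 to 364.5 CPM) and Tagln2 (222.3 to 238.6 against 308.8 to 340.4 CPM) separate the groups, and the other 8 genes overlap.

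Ahnak (ENSMUSG00000069833, GRCm38 chr19:8989284-9076914, plus strand) spans 19938 exonic bases, of which a single exon holds 17498. Its level in Ndrg3ctrl replicates 1 to 4 was 184.9, 237.7, 249.8 and 207.6 CPM. In Ndrg3TKO replicates 1 to 4 it was 294.0, 364.5, 342.8 and 288.1 CPM. Every Ndrg3TKO library was thus above every Ndrg3ctrl library, and the spread within each group was wide, with a coefficient of variation of 13.4% in Ndrg3ctrl and 11.6% in Ndrg3TKO. The mean went from 220.0 ± 29.4 to 322.3 ± 37.3 CPM (SD, n = 4 each), a log2 fold change of 0.55 (SE 0.102, 1.47-fold). Each library held 4842 or more Ahnak counts, so counting error was small beside the spread between mice. Among the 5 libraries without Y-linked counts (3 Ndrg3ctrl and 2 Ndrg3TKO) the log2 fold change was 0.44 and was not past the threshold, a fit chosen after seeing the data. It was also not past it with no filter on low counts (0.55), without Ndrg3ctrl 2 (0.59), without Ndrg3ctrl 4 (0.52) or without Ndrg3TKO 3 (0.52), and was past it in the other 11 settings tried. In the 3 libraries with Y-linked counts, Ahnak was at 237.7 CPM in the Ndrg3ctrl library and at 364.5 and 342.8 CPM in the Ndrg3TKO libraries.

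Tagln2 (ENSMUSG00000026547, chr1:172500047-172507380, plus strand), the gene of transgelin-2, was at 238.6, 227.6, 222.3 and 226.9 CPM in Ndrg3ctrl. In Ndrg3TKO it was at 308.8, 340.4, 326.0 and 309.6 CPM. The groups lay far apart for how little the mice within each varied, with a coefficient of variation of 3.01% in Ndrg3ctrl and 4.69% in Ndrg3TKO. The mean went from 228.9 ± 6.89 to 321.2 ± 15.1 CPM (SD, n = 4 each), a log2 fold change of 0.49 (SE 0.0504, 1.40-fold). In the 5 libraries without Y-linked counts it was 0.43, again past the threshold. In the 3 libraries with Y-linked counts, Tagln2 was at 227.6 CPM in the Ndrg3ctrl library and at 340.4 and 326.0 CPM in the Ndrg3TKO libraries.

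Ahnak and Tagln2 had nearly the same fold change. Over the 8 libraries Pearson's r of their log2 CPM was 0.869, given as a description, and the points share the difference between the groups. With the group means removed, r was 0.172. Within Ndrg3TKO replicates 2 and 3 were the highest for both genes, whereas within Ndrg3ctrl the library lowest for Ahnak (replicate 1) was the highest for Tagln2 and the library highest for Ahnak (replicate 3) was the lowest for Tagln2. The ratio of Ahnak to Tagln2 CPM was 0.775 to 1.12 in Ndrg3ctrl and 0.931 to 1.07 in Ndrg3TKO, so that the ranges overlapped. Of all tested genes, those most like Ahnak over the 8 libraries were Tcf20 (r = 0.993), a transcriptional coregulator gene, Mdfic (r = 0.965) and the p38 kinase gene Mapk14 (r = 0.953). The log2 fold changes of these 3 genes were 0.26, 0.43 and 0.09. Those most like Tagln2 were Arhgap5 (r = 0.985), a GTPase-activating protein gene, Tcrg-C4 (r = 0.985), a T cell receptor gamma constant gene, and Adgre5 (r = 0.982), which encodes the adhesion receptor CD97. Their log2 fold changes were 0.50, 3.15 and 0.72, and Tcrg-C4 went from a mean of 1.37 to 12.1 CPM. The r values for likeness are the highest found over 14633 tested genes. They too hold the difference between the groups, so they are a description and no sign of shared control.

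The stretch before the start of Ahnak is shown because this gene had the largest fold change of the 9 tested genes, and that of S100a4 because this gene had almost no counts. Both are the 250 bases before the RefSeq start (GRCm38.p6, plus strand), at chr19:8989034-8989283 for Ahnak and chr3:90603520-90603769 for S100a4. Capitals mark, on either strand, CACCC (the box bound by KLF factors), GGGCGG (the GC box of Sp and KLF factors), TGANTCA (the AP-1 motif), TATAAA and the CArG box of SRF.
Ahnak: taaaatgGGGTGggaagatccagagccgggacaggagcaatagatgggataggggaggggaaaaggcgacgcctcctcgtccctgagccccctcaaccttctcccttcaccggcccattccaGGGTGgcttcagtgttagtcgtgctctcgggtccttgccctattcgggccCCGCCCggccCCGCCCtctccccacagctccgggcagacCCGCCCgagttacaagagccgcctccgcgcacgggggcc
S100a4: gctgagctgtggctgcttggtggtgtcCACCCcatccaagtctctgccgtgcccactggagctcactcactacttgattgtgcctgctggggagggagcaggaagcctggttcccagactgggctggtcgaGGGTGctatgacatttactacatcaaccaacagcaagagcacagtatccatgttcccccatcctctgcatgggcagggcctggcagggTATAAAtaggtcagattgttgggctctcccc
The Ahnak window held 2 CACCC and 3 GGGCGG matches and no TATAAA, with 66.4% G and C, beside a median of 52.4% over 32851 promoters of the same length. The S100a4 window held 2 CACCC matches and a TATAAA 31 bases before the start, and no GGGCGG. The Tagln2 window held 3 GGGCGG matches, at 170, 38 and 27 bases before its RefSeq start. It is not printed since 199 of its bases lie in GENCODE exons on the same strand. Such exons also covered 250 of the 250 bases for Vim, 63 for Anxa2 and 12 for S100a6. These windows stay in the counts that follow. Promoters were matched for 7 of the 10 genes (not S100a10, Anxa6 and Lgals1). CACCC was in 5 of these 7 windows and in 52.0% of all promoters, GGGCGG in 4 of 7 and 32.7%, TATAAA in 3 of 7 and 12.4%, TGANTCA in 1 of 7 (Anxa2, where it shares 2 letters with a CACCC) and 6.75%, and the CArG box in 0 of 7 and 1.47%. A match in such a window is a description of letters and not a bound site.

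The proteins of Anxa2 and S100a10 form the complex that AHNAK binds, and for neither gene did a Ndrg3TKO library exceed the highest Ndrg3ctrl library. Anxa2 (ENSMUSG00000032231, chr9:69453620-69491795, plus strand) was at 27.1, 30.0, 23.8 and 26.6 CPM in Ndrg3ctrl and at 25.2, 26.2, 26.1 and 27.4 CPM in Ndrg3TKO. All Ndrg3TKO values lay inside the Ndrg3ctrl range, and the log2 fold change was -0.034 (SE 0.0745). The antisense gene Gm16144, which shares 98 exonic bases with Anxa2, had 0 counts in all libraries. S100a10 (ENSMUSG00000041959, chr3:93555080-93564643) was at 101.0, 111.0, 97.9 and 93.7 CPM in Ndrg3ctrl and at 73.3, 104.3, 87.4 and 97.5 CPM in Ndrg3TKO. The 2 lowest values were those of Ndrg3TKO 1 and Ndrg3TKO 3, the ranges overlapped, and the log2 fold change was -0.15 (SE 0.0952).

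Anxa6 (ENSMUSG00000018340, chr11:54979108-55033445, minus strand), the gene of an annexin with a duplicated core, had the highest level of the 10 per exonic length. It was at 773.7, 859.7, 712.7 and 732.8 CPM in Ndrg3ctrl and at 783.9, 830.0, 760.1 and 723.3 CPM in Ndrg3TKO. The Ndrg3TKO range lay within that of Ndrg3ctrl, with a log2 fold change of 0.0089 (SE 0.0704).

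The pair of S100 genes that lead effector and memory T cell profiles, S100a4 and S100a6, had few counts in these thymocytes. S100a4 (ENSMUSG00000001020, chr3:90603771-90606045) had 2 counts in all 4 Ndrg3ctrl libraries together, all in replicate 4, and 6 in the Ndrg3TKO libraries, 3 each in replicates 2 and 4. It shares 302 of its 584 exonic bases with Gm42674 on the same strand, which had 0 counts, and whether reads there were left uncounted was not tested. A floor of 3 counts corresponds to 0.092 to 0.147 CPM in these libraries, so S100a4 was at or under it throughout and no fold change is given. This floor covers counting error only. S100a6 (ENSMUSG00000001025, chr3:90612882-90624181) was at 0.369, 0.638, 0.710 and 0.548 CPM in Ndrg3ctrl and at 0.364, 0.220, 0.267 and 1.04 CPM in Ndrg3TKO. The lowest 3 of the 8 values were all from Ndrg3TKO and the value of Ndrg3TKO 4 was the highest, on 11 to 21 counts a library in Ndrg3ctrl and 7 to 34 in Ndrg3TKO. The log2 fold change was -0.23 (SE 0.455) with all libraries. Over 15 other settings it lay between -0.98 (without Ndrg3TKO 4) and 0.39 (libraries without Y-linked counts), so its sign was not stable.

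Lgals1 (ENSMUSG00000068220, chr15:78926725-78930465) was at 92.4, 116.1, 94.5 and 104.7 CPM in Ndrg3ctrl and at 95.6, 115.7, 94.0 and 104.7 CPM in Ndrg3TKO, with a log2 fold change of 0.0094 (SE 0.081). Whether reads of Lgals1 were split with processed copies of the gene was not tested. Vim (ENSMUSG00000026728, chr2:13573927-13582826) was at 748.7, 821.8, 696.1 and 737.3 CPM in Ndrg3ctrl and at 689.7, 772.9, 717.3 and 707.2 CPM in Ndrg3TKO, with a log2 fold change of -0.057 (SE 0.0649). The groups overlapped for both genes. Crip1 (ENSMUSG00000006360, chr12:113146316-113153879) was at 59.7, 69.0, 61.9 and 65.4 CPM in Ndrg3ctrl and at 53.6, 63.9, 51.9 and 55.0 CPM in Ndrg3TKO. In 3 of 4 Ndrg3TKO libraries Crip1 was below every Ndrg3ctrl library, with a log2 fold change of -0.19 (SE 0.0697), and Ndrg3TKO 2 lay among the controls.

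Levels of different genes were compared per exonic length as TPM (counts per exonic length, scaled to a fixed sum in each library). In Ndrg3ctrl the order was Anxa6 (872.9 ± 43.4 TPM), Vim (526.7 ± 31.0), Lgals1 (376.0 ± 42.3), Tagln2 (366.3 ± 23.9), S100a10 (276.6 ± 7.39), Crip1 (93.6 ± 8.39), Ahnak (36.8 ± 5.27), Anxa2 (24.0 ± 1.87), S100a6 (1.38 ± 0.375, SD, n = 4 each) and S100a4. Lgals1 and Tagln2 overlapped between libraries, and the other neighbours among the first 9 did not. Anxa6 stood at percentile 99.3 of all tested genes by TPM, Ahnak at 66.7 and Anxa2 at 54.5. In Ndrg3TKO, Tagln2 (524.0 ± 16.6 TPM) was level with Vim (516.8 ± 13.9 TPM). The ratio of Tagln2 to Vim TPM was 0.631 to 0.728 within the Ndrg3ctrl libraries and 0.997 to 1.04 within the Ndrg3TKO libraries. S100a10 was 10.9 to 12.6 times Anxa2 in Ndrg3ctrl and 8.96 to 12.2 times in Ndrg3TKO, while Ahnak was 1.28 to 1.96 and 1.97 to 2.60 times Anxa2. By the group means, Tagln2 passed Lgals1 and Vim in Ndrg3TKO and the other 9 genes kept their order, Ahnak included.

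**Figure D2:**
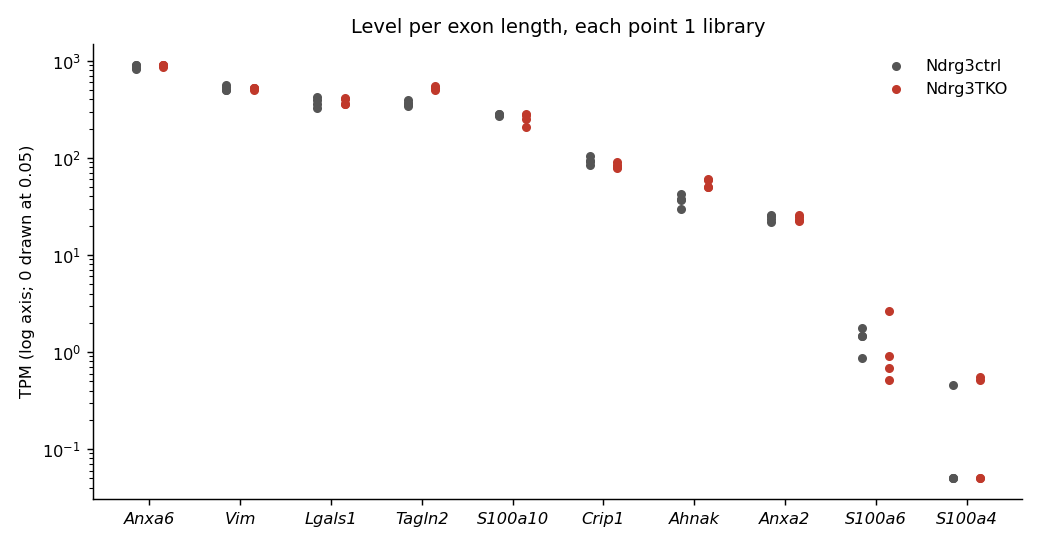
TPM of the 10 genes (log axis, a listed 0 drawn at 0.05) in each of 4 Ndrg3ctrl and 4 Ndrg3TKO libraries, ordered by the mean in Ndrg3ctrl. The genes span from 872.9 TPM (Anxa6) to S100a4 at or under 3 counts, and Tagln2 moves from the level of Lgals1 (376.0 TPM) to that of Vim (516.8 TPM).

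Other genes of the same families, partners of AHNAK, and genes of the membrane linkers and the actin cortex were tested. Of 85 such genes in 9 lists, 52 passed the filter and 1, Lmna, was past the threshold, or 1.92% beside 1.15% of all genes. Of the 52 log2 fold changes 43 were negative, with a median of -0.07, beside 7493 of 14633 and a median of -0.0033 over all tested genes, and 8 (15.4%) had an unadjusted p under 0.05, beside 10.9% of all tested genes. DESeq2 also called Lmna alone among them. As the 9 lists too were chosen with earlier results of these data known, nothing is read from these shares. Groups without overlap, named for single genes below, were found for 7.04% of all tested genes in either direction. Nothing is read from such a separation either.

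Among the annexins, 5 of 9 other genes were tested and 0 passed, with a median log2 fold change of -0.092. Anxa5, whose protein is the phosphatidylserine binder used to stain dying cells, had 0.13 (adjusted p = 0.638), Anxa11 -0.002 (adjusted p = 0.993) and Anxa7 -0.092 (adjusted p = 0.638). In the S100 family, 3 of 14 other symbols were tested and 0 passed. S100a11 had -0.061 (adjusted p = 0.872) and S100a13 -0.082 (adjusted p = 0.868). The third, S100pbp, encodes a binding partner of an S100 protein and not an S100, and had 0.14 (adjusted p = 0.282). Every Ndrg3TKO library was above every Ndrg3ctrl library for S100pbp. The inflammatory S100a9 had 0 counts in every library.

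Of the transgelins and calponins, which bind actin through a common calponin homology domain, 4 of 5 were tested and 0 passed, all with negative fold changes (median -0.171). Cnn2, the most abundant, was at 639.2 to 760.3 CPM in Ndrg3ctrl and 621.1 to 683.1 CPM in Ndrg3TKO, a log2 fold change of -0.086 (edgeR, adjusted p = 0.68). Cnn3 was at 63.5 to 81.5 CPM in Ndrg3ctrl and 53.5 to 61.4 CPM in Ndrg3TKO, with every Ndrg3TKO library below every Ndrg3ctrl library and a log2 fold change of -0.26 (SE 0.0739, adjusted p = 0.146). Tagln3 was near 1 CPM with -0.066 (adjusted p = 0.959). Per length, Cnn2 was 2.42 to 2.83 times Tagln2 in the Ndrg3ctrl libraries and 1.69 to 1.71 times in the Ndrg3TKO libraries.

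Of the galectins, 4 of 7 were tested and 0 passed (median -0.175). Lgals9 had -0.092 (adjusted p = 0.661), Lgals8 -0.018 (adjusted p = 0.944) and Lgals4 -0.26 (adjusted p = 0.473). The fold change of Lgals3 was -1.1 (SE 0.409, adjusted p = 0.311). It was at 0.637 to 1.18 CPM in Ndrg3ctrl and lower in every Ndrg3TKO library, at 0.092 to 0.601 CPM. Of the cysteine-rich LIM genes, 2 of 5 were tested and 0 passed, with Csrp1 at -0.10 (adjusted p = 0.632) and Crip2 at -0.51 (adjusted p = 0.657), while Crip3 had at most 11 counts in a library. Among the partners of AHNAK, 3 of 8 were tested and 0 passed. Plcg1, the phospholipase C that acts downstream of the T cell receptor, had 0.0095 (adjusted p = 0.966), the calcium channel subunit gene Cacnb1 -0.26 (adjusted p = 0.27) and Cacnb3 0.073 (adjusted p = 0.93). Ahnak2, the only close relative of Ahnak, had at most 3 counts in a library.

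All 4 ERM linker genes, which tie the membrane to actin, were tested and 0 passed, with Msn at -0.013 (adjusted p = 0.976), Slc9a3r1 at -0.11 (adjusted p = 0.508) and Ezr at 0.019 (adjusted p = 0.949). All 23 genes of the actin cortex were tested and 0 passed, with a median of -0.053 and 1 unadjusted p under 0.05. Actb had -0.074 (adjusted p = 0.83), Tmsb4x, which encodes the actin monomer binder thymosin beta 4, -0.17 (adjusted p = 0.638) and Coro1a -0.061 (adjusted p = 0.835).

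**Figure D3:**
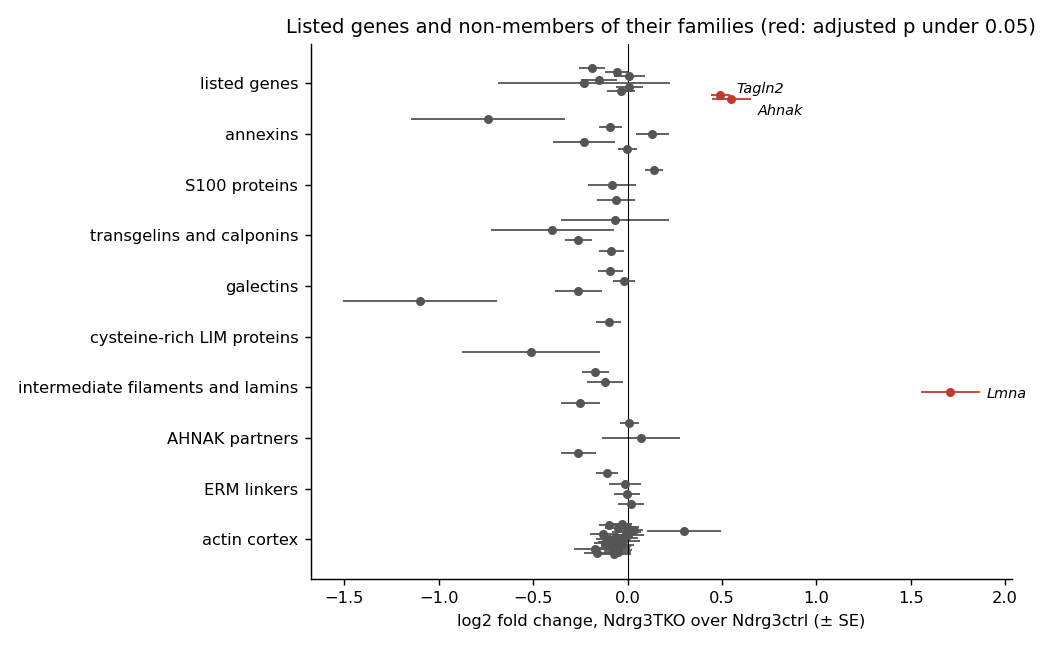
Log2 fold change of Ndrg3TKO over Ndrg3ctrl (horizontal axis, ± SE) for the 9 tested listed genes and the 52 tested genes of related lists, with red for an adjusted p under 0.05. Ahnak (0.55), Tagln2 (0.49) and Lmna (1.71) stand to the right, and 43 of the 52 are left of 0.

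Lmna (ENSMUSG00000028063, chr3:88480147-88509956, minus strand), which encodes the nuclear lamins A and C, is in the intermediate filament family of Vim. It was at 10.3, 8.69, 8.46 and 6.98 CPM in Ndrg3ctrl and at 36.5, 25.3, 22.3 and 28.5 CPM in Ndrg3TKO. The groups were far apart, and Lmna rose in Ndrg3TKO with a log2 fold change of 1.71 (SE 0.156, adjusted p = 1.54e-04, edgeR quasi-likelihood test). The B-type lamins, which all cells carry, did not pass, with Lmnb1 at -0.12 (adjusted p = 0.69) and Lmnb2 at -0.17 (adjusted p = 0.413), nor did the neurofilament gene Nefh at -0.25 (adjusted p = 0.395). Per length, Lmnb1 was 30.0 to 42.0 times Lmna in the Ndrg3ctrl libraries and 8.16 to 12.4 times in the Ndrg3TKO libraries. Within this list 4 of 10 genes were tested, and Des and Nefl had 0 counts.

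**Figure D4:**
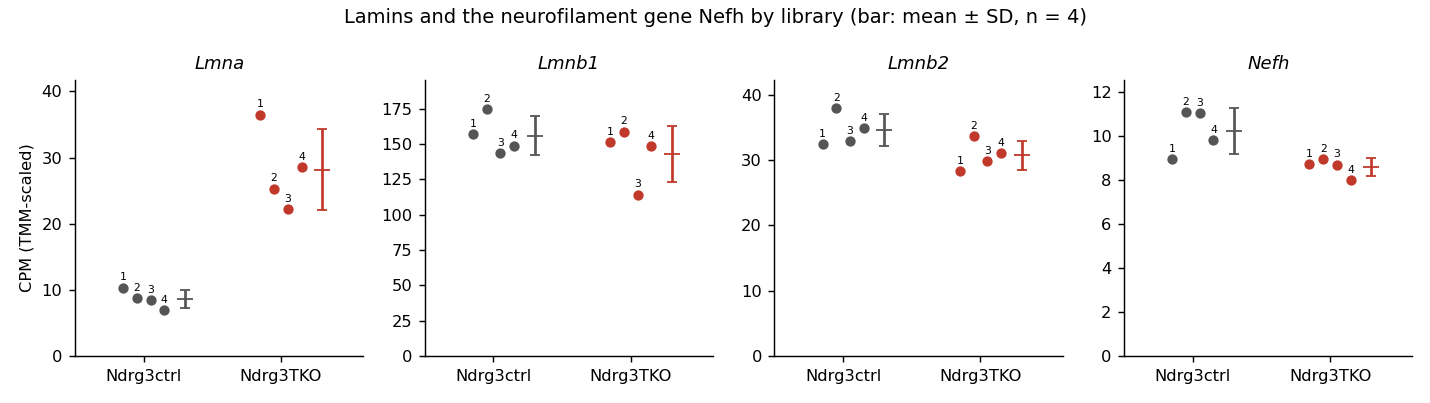
TMM-scaled CPM (vertical axes from 0) of Lmna, Lmnb1, Lmnb2 and Nefh in each of 4 Ndrg3ctrl and 4 Ndrg3TKO libraries, numbered by replicate, with bars for the mean ± SD. Lmna lies at 6.98 to 10.3 CPM in Ndrg3ctrl and 22.3 to 36.5 CPM in Ndrg3TKO, and the other 3 genes overlap between the groups.

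Genes of thymocyte maturation and of memory-like CD8 cells were set beside the 10 genes, since the list is named for maturation. They too were listed with earlier results of these data known, so nothing is read from their shares. Of 32 such genes 30 were tested, 0 were past the threshold as higher and 4 fell in Ndrg3TKO by edgeR (13.3% passed, beside 1.15% of all tested genes), and 16 (53.3%) had an unadjusted p under 0.05, beside 10.9% of all tested genes. By DESeq2 6 passed, with Ly6c2 as lower and Dntt, a gene of immature thymocytes, as higher (0.45 by edgeR, adjusted p = 0.0783) beside these 4. Of the mature single-positive genes, 10 of 10 were tested and 0 passed, with 8 negative log2 fold changes (80.0%, beside 51.2% of all tested genes) and 6 unadjusted p-values under 0.05. Klf2, a transcription factor of thymocyte exit, had -0.26 (adjusted p = 0.13), its target S1pr1 -0.19 (adjusted p = 0.203) and Ccr7 -0.26 (adjusted p = 0.135). Of the immature thymocyte genes, 9 of 11 were tested and 1 passed. The median was 0.136 and 5 of the 9 log2 fold changes were positive, unlike that of the gene that passed. Egr1, an early gene of T cell receptor signalling, fell by 0.43 on the log2 scale (adjusted p = 0.0422). Of the memory-like genes, 11 of 11 were tested, with a median of -0.069 and 2 positive log2 fold changes. Those 2 were Klrd1 (0.31, adjusted p = 0.32) and Nkg7 (0.23, adjusted p = 0.203). Of the 11 genes, 3 passed. These were Eomes, a T-box factor of memory cells (log2 fold change -1.26, adjusted p = 1.70e-04), the chemokine receptor gene Cxcr3 (-1.55, adjusted p = 0.00356) and the chemokine gene Ccl5 (-2.39, adjusted p = 6.03e-04), each lower in every Ndrg3TKO library. Cd44, an activation marker that binds ERM proteins, was at 40.0 to 53.0 CPM in Ndrg3ctrl and 41.2 to 48.4 CPM in Ndrg3TKO, with -0.065 (adjusted p = 0.832).

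Markers of other cells ranged from 0 counts to a mean of 86.6 TPM in Ndrg3ctrl for Pecam1, an adhesion gene of endothelial cells that leukocytes also use, which was above Ahnak (36.8 TPM) and Anxa2 (24.0 TPM). The NK or NKT cell list summed to 0.256 to 0.933 CPM in Ndrg3ctrl and 1.51 to 2.12 CPM in Ndrg3TKO. In that list Klrb1c rose (log2 fold change 2.62, adjusted p = 0.00149), Zbtb16 was at 0.146 to 0.335 CPM in Ndrg3ctrl and 0.0314 to 0.0921 CPM in Ndrg3TKO, and Ncr1 had 0 counts. The B cell list summed to 11.1 to 13.2 and 8.44 to 9.42 CPM, nearly all from Cd79b (log2 fold change -0.43, adjusted p = 0.0529), with Ms4a1 at 0. CD4 T cell markers summed to 4.50 to 6.90 and 5.09 to 8.17 CPM, myeloid and dendritic markers to 30.9 to 45.0 and 31.5 to 36.4 CPM, stromal and endothelial markers to 156.4 to 179.5 and 148.9 to 162.7 CPM, of which Pecam1 gave most, and thymic epithelial markers to 1.68 to 3.04 and 1.20 to 2.57 CPM, each with 0 genes past the threshold. Granulocyte markers stayed at or under 0.146 CPM and erythroid markers at or under 0.232 CPM. The part of these cells in the levels of Ahnak and Tagln2 was not tested.

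Libraries differed in ways that touched most of the 10 genes at once. Of the 9 tested genes, 6 (Anxa2, Anxa6, S100a10, Lgals1, Vim and Crip1) were highest within Ndrg3ctrl in Ndrg3ctrl 2, which was the highest control library for 30.0% of all tested genes. Within Ndrg3TKO, 7 (Ahnak, Tagln2, Anxa6, S100a10, Lgals1, Vim and Crip1) were highest in Ndrg3TKO 2, which was the highest for 28.0% of all tested genes. Anxa6, S100a10, Lgals1, Vim and Crip1 were thus highest in replicate 2 of both groups, and these libraries are also the shallowest and the deepest of the 8, both with Y-linked counts. For these 5 genes the range within each group was wider than the difference between the group means. Ndrg3TKO 3, which also had Y-linked counts, was highest within Ndrg3TKO for 0 of the 9 tested genes and lowest for Lgals1 and Crip1.

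**Figure D5:**
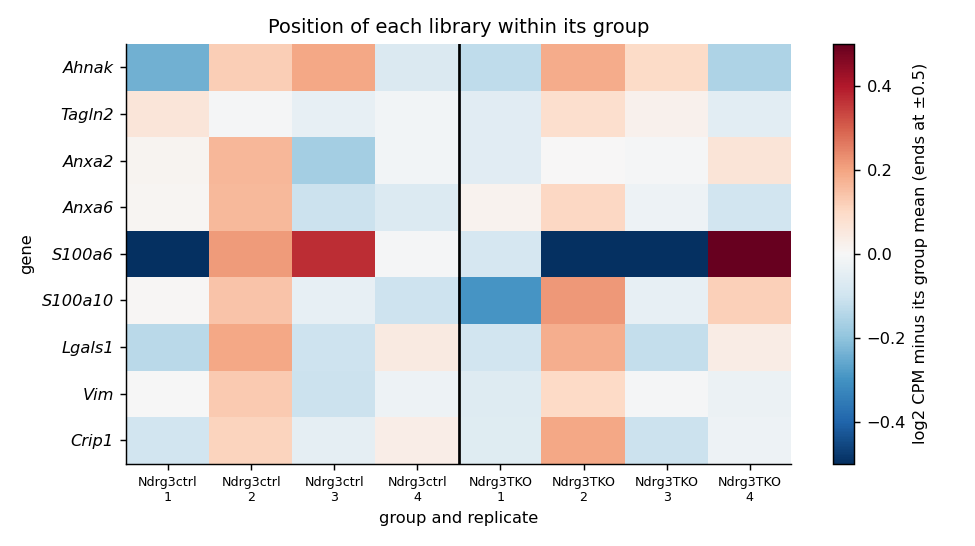
Log2 CPM of each of the 9 tested genes in each library minus the mean of its own group (colour, ends at ± 0.5). The columns of Ndrg3ctrl 2 and Ndrg3TKO 2 are raised for 6 and 7 of the 9 genes that were highest there, and S100a6 varies most between libraries.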

How the data were processed

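Thymic CD8SP RNA of 4 Ndrg3ctrl and 4 Ndrg3TKO mice was sequenced from ribosomal RNA-depleted, stranded total RNA libraries. Per the submitters' processing notes and the study's methods, the authors ran snakePipes, with adapters removed by cutadapt, STAR alignment to GRCm38.p4 (GENCODE M9) and gene counts from featureCounts. The authors deposited raw counts for 47937 genes, which are not normalized. The strand and multiple-match settings of the counting are not given in the sources used here. Symbols, positions and exonic lengths came from GENCODE M21 (GRCm38), and 47310 genes (98.7%) matched by Ensembl identifier. Promoter sequences came from RefSeq (GRCm38.p6).

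The 8 libraries entered 1 edgeR 4.0.16 fit in R 4.3.3 (TMM scaling, robust glmQLFit, glmQLFTest). The low-count filter was filterByExpr with the group, and p-values were adjusted by Benjamini-Hochberg over 14633 genes and called under 0.05. A standard error is the size of a log2 fold change divided by the root of its F value. DESeq2 1.42.0 was an alternative. TPM used the union of a gene's exons. For likeness, log2 CPM with a prior count of 2 was used. The floor is 3 counts per library. Without molecular identifiers, reads copied by PCR do not count separate molecules, so floors cover counting error only. The procedure was tested on simulated counts.

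The 10 genes and all other gene lists were chosen with earlier results of these data known. Named are the 10 genes, every other listed gene past the threshold, in each family list the 3 other genes with the highest TPM in Ndrg3ctrl, Ndrg3, and the 3 genes most like Ahnak and Tagln2. Klf2, S1pr1, Ccr7, Cd44, Dntt, Ly6c2, Klrd1, Nkg7, Lgals3, S100a9, Ahnak2, Des, Nefl and the cell markers given by value were named after their values were seen. Alternatives covered the tool, the scaling, the low-count filter, the likelihood ratio test, a replicate block, a Y-linked covariate and leaving out each library.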

Additional observations from a re-analysis of the deposited data

Results flagged for a closer look

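Over 38 groups of 4 libraries (the 9 tested genes of the list, the other named values and the library measures), 2 had a library set apart from the other 3 by Dixon's test, where chance sets apart about 1 in 20 groups, or 1.9 of 38. Y-linked genes gave 353.1 CPM in Ndrg3ctrl 2, read as the library of a male mouse, far above the other control libraries, which were at or under 0.0731 CPM. Mitochondrial genes took 0.6364% of the counts in Ndrg3ctrl 4, below the 0.803% to 0.820% of the other control libraries and within the 0.571% to 0.713% of the Ndrg3TKO libraries. No group of values of these 9 genes was set apart in this way.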

How the results depend on the processing

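Over 16 other settings, the log2 fold change of Tagln2 lay between 0.43 and 0.51 and was past the threshold in all 16. That of Ahnak lay between 0.44 and 0.62 and was past it in 11, and not with no filter on low counts (0.55), without Ndrg3ctrl replicate 2 (0.59), without Ndrg3ctrl replicate 4 (0.52), without Ndrg3TKO replicate 3 (0.52) or in the 5 libraries without Y-linked counts (0.44), a fit chosen after seeing the data. The number of the 10 genes past the threshold was 1 with no filter, 1 in those 5 libraries, and 1 to 2 when 1 library was left out. The log2 fold change of Lmna lay between 1.56 and 1.92 and passed in all 16 (adjusted p 1.67e-25 to 0.004). Egr1 passed in 9 of 16 (adjusted p 2.89e-05 to 0.192) and Cxcr3 in 15 of 16 (0.0574 in the libraries without Y-linked counts).

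Over all genes, 168 were past the threshold (116 higher and 52 lower in Ndrg3TKO). DESeq2 gave 309 (191 and 118), no filter 274 (176 and 98), the likelihood ratio test 285 (172 and 113), the Y-linked covariate 412 (245 and 167) and the libraries without Y-linked counts 92 (73 and 19). Leaving out 1 library gave 90 to 158 (72 to 110 higher, 18 to 48 lower), with the count over 1.5 times lower without Ndrg3ctrl 1 (100), 3 (110) or 4 (104) or without Ndrg3TKO 1 (106), 3 (90) or 4 (107). With no filter, 2 family genes (Cnn3 and Lmna) and 7 maturation and memory genes passed, and with the Y-linked covariate 2 (the same genes) and 10. Leaving out 1 library gave 3 to 5 maturation and memory genes and 1 family gene. Ndrg3, Eomes, Ccl5 and Klrb1c kept their direction and stayed past the threshold in every setting that tested them.

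The labels do not say that a shared replicate number marks a shared litter, day or batch. Correlations of same-numbered libraries, as deviations from the group means, were 0.181, 0.415, -0.0550 and 0.301 for replicates 1 to 4, and each library correlated best with its own number except the replicate 3 libraries. With the replicate block, 800 genes passed (435 higher and 365 lower), among them 3 of the 10 genes (Ahnak, Tagln2 and Crip1), 5 family genes (Actg1, Cacnb1, Cnn3, Lmna and S100pbp) and 13 maturation and memory genes.

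S100a4 and S100a6 had few counts, and 33 of the 85 related genes had too few counts to be tested. With 4 mice a group and Y-linked counts in 1 Ndrg3ctrl and 2 Ndrg3TKO libraries, the cause of these changes was not tested.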
